A study of Homo sapiens with 4 samples.

Results

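Peroxisomal beta-oxidation and the import of its substrates were followed through 8 genes: the importer ABCD3, the acyl-CoA oxidases ACOX2 and ACOX3, the bifunctional enzymes EHHADH and HSD17B4, the thiolases ACAA1 and SCP2, and the catalase CAT. They were chosen by symbol, as named steps of the pathway, with earlier results of these data known. All 8 were found among the 56832 genes of the deposited table. The cells were A375, an established human melanoma cell line labelled wild type and grown in DMEM with serum. They received 1 mM octanoate, the salt of a saturated medium-chain fatty acid, while the control group received isopropanol alone. RNA was taken after 48 h in both groups, and each group has 2 libraries. The labels do not say whether the libraries came from separate cultures, so p-values measure only the spread between these libraries.

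Peroxisomes shorten fatty acids that mitochondria handle poorly, such as very-long-chain, branched and dicarboxylic acids and the side chain of bile acid precursors. The substrates enter as acyl-CoA or acid through ABCD transporters, and an acyl-CoA oxidase then passes electrons directly to oxygen, which yields hydrogen peroxide. Hydration and dehydrogenation by a bifunctional enzyme and cleavage by a thiolase complete each round, catalase removes the peroxide, and the shortened medium-chain products leave for the mitochondria. In rodent liver several genes of this route are textbook targets of the fatty acid receptor PPAR alpha.

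Recovered reads per library ranged from 67785956 to 78005035, and replicates differed by more than sampling noise. Of 7 melanoma and melanocyte markers, SOX10 ranged from 34072 to 41363 normalised counts per library and the pigment enzyme gene TYR from 1.93 to 3.93. S100B fell by 1.12 and MITF by 0.48 on the log2 scale under octanoate (adjusted p 9.15e-12 by limma and 2.33e-06), and PMEL rose by 0.55 (adjusted p 0.0289 by limma). SOX10, MLANA and DCT were not called. The summed count of 10 markers of other cell types was 1572 to 1751 in the vehicle libraries and 838 to 874 in the octanoate libraries. KRT14 alone gave 1110 and 942 of it in vehicle and 266 and 218 in octanoate, so the sum followed mainly that gene. Each of these 10 had a read in every library, and the leukocyte gene PTPRC reached at most 10.8 normalised counts. Of the 5 that were tested, KRT14 (log2 difference -2.08) and COL1A1 (-0.69) were called lower and PECAM1 (0.95) and VWF (0.50) higher, while EPCAM was not called. Over all tested genes 29.9% were called in either direction. The part of these marker changes in the results that follow was not tested, and in bulk RNA fewer cells of a type and less RNA per cell cannot be told apart.

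Octanoate changed 2 of the 8 genes, in opposite directions and by small amounts. HSD17B4, which encodes the D-bifunctional protein, rose 1.14-fold, and ACAA1, which encodes the thiolase for straight-chain substrates, fell to 0.812 of its vehicle level. ABCD3, ACOX2, ACOX3, EHHADH, SCP2 and CAT did not pass the test, and their 95% intervals lay between 0.814 and 1.24 times the vehicle level. The test was limma on log2(normalised count + 1), with a gene called at a Benjamini-Hochberg adjusted p under 0.05 over 20250 genes with a mean of at least 10. By that rule 29.9% of all tested genes were called (6048 genes), 16.2% higher and 13.7% lower, and among the 9787 tested genes with a mean within the range of these 8 the share was 38.3%. Both calls ended in limma fits without an intensity trend in the variance prior (adjusted p 0.162 for HSD17B4 and 0.117 for ACAA1) and without a filter on low values (0.0896 and 0.0689). The share of 2 in 8 (25.0%) is near the background and is not a result about the pathway. The median log2 difference of the 8 was -0.01, with 4 positive and 4 negative, and that of all tested genes was 0.01.

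**Figure D1:**
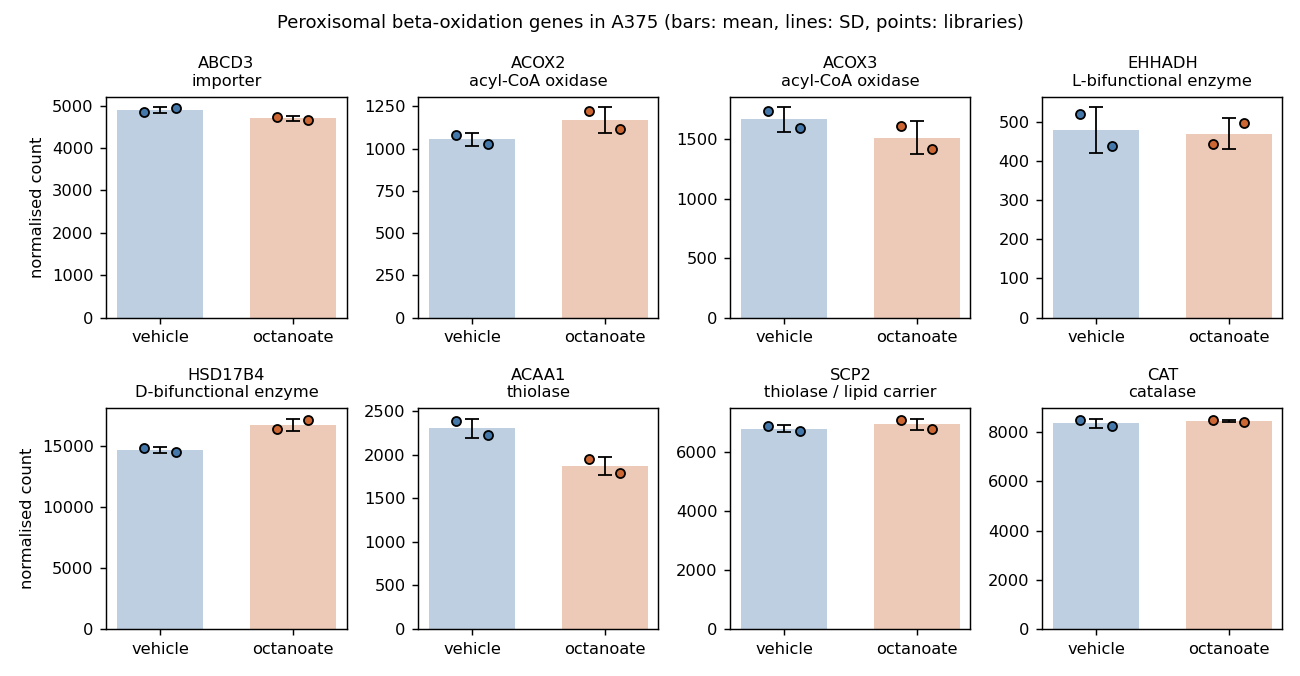
Normalised count (vertical axes, each starting at 0) of the 8 genes in vehicle and octanoate libraries; points are the 2 libraries of a group, bars their mean and lines the SD. Both octanoate libraries lie above both vehicle libraries for HSD17B4 (16322 and 17065 against 14835 and 14457) and below them for ACAA1 (1946 and 1795 against 2382 and 2222).

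The levels of the 8 transcripts spanned a wide range. Per kilobase of the principal GENCODE 29 transcript, the vehicle level in normalised counts was highest for HSD17B4, at 5455 ± 99.6 (SD, n = 2), followed by CAT at 3636 ± 81.7 and SCP2 at 2414 ± 46.3. ABCD3 stood at 1384 ± 18.4 and ACAA1 at 1290 ± 63.6 (SD, n = 2 each). The lowest were ACOX3 at 583 ± 36.2, ACOX2 at 435 ± 16.8 and EHHADH at 125 ± 15.1 (SD, n = 2 each). In the vehicle group the libraries of no 2 neighbours in this order overlapped, whereas in the octanoate group ACOX3 (496 and 563) and ACOX2 (460 and 504) did. The order depends on the length used: divided by all annotated exon bases, CAT stood above HSD17B4 and ACOX3 above ACAA1, and the other 4 ranks stayed in place.

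At the import step stands ABCD3, the ATP-driven transporter of the peroxisomal membrane that carries branched and dicarboxylic acyl-CoA and bile acid precursors (ENSG00000117528.12, GRCh38 chr1:94418455-94518666, plus strand). Its normalised count was 4850 and 4942 in vehicle and 4736 and 4661 in octanoate. Both octanoate libraries were lower, yet the log2 difference was only -0.06 (standard error 0.06, adjusted p 0.483 by limma), with a 95% interval from -0.18 to 0.06. Groups that do not overlap were common in this comparison, at 63.1% of all tested genes, and were found for 4 of the 8 genes here: ABCD3, ACOX2, HSD17B4 and ACAA1.

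The oxidases open each round of the cycle, ACOX2 on bile acid precursors and branched chains and ACOX3 on pristanoyl-CoA and other methyl-branched chains. ACOX2 (ENSG00000168306.12, chr3:58505136-58537319, minus strand) had 1084 and 1026 normalised counts in vehicle and 1223 and 1115 in octanoate. The octanoate libraries were both higher, with a log2 difference of 0.15 (standard error 0.08, 95% interval -0.01 to 0.31, adjusted p 0.159 by limma), which did not pass the test. After removal of GC and length trends it did pass, at a log2 difference of 0.15 and a limma adjusted p of 0.0409. Of the 15 alternative settings, 2 called ACOX2 and 13 did not. ACOX3 (ENSG00000087008.15, chr4:8366282-8440723, minus strand) had 1740 and 1594 in vehicle and 1610 and 1418 in octanoate. These groups overlapped, and the log2 difference of -0.14 (standard error 0.08, 95% interval -0.30 to 0.02, adjusted p 0.171 by limma) did not pass the test either. Within each library, the ratio of ACOX3 to ACOX2 per kilobase was 1.36 and 1.32 in vehicle and 1.12 and 1.08 in octanoate, so the ratio was lower in both octanoate libraries. With 2 libraries a group, 0.333 is the smallest two-sided p that an exact permutation test allows, and no such ratio was tested.

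Hydration and dehydrogenation are catalysed by a pair of distinct bifunctional enzymes. EHHADH, the L-bifunctional enzyme linked to dicarboxylic acid oxidation (ENSG00000113790.10, chr3:185190624-185281990, minus strand), was counted from the fewest reads of the 8, 453 to 531 per library. It had 521 and 439 normalised counts in vehicle and 443 and 499 in octanoate. The groups overlapped fully, and the log2 difference was -0.03 (standard error 0.10, 95% interval -0.24 to 0.19, adjusted p 0.884 by limma). Its sign turned when a single library was left out, to 0.10 without vehicle 1 and 0.06 without octanoate 1. Exons of EHHADH share 269 bases with EHHADH-AS1 on the opposite strand in GENCODE 29, and whether counting used strand is not given in the sources used here. The name EHHADH-AS1 was not found among the deposited genes.

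HSD17B4, the D-bifunctional enzyme that serves very-long-chain, branched and bile acid substrates (ENSG00000133835.15, chr5:119452443-119637199, plus strand), was counted from 14922 to 16957 recovered reads per library. Its normalised count was 14835 and 14457 in vehicle and 16322 and 17065 in octanoate. Both octanoate libraries were higher, a log2 difference of 0.19 (standard error 0.06, 95% interval 0.07 to 0.30, adjusted p 0.0129 by limma). The call depended on single libraries: the limma adjusted p was 0.0764 without vehicle 2 (log2 difference 0.17) and 0.161 without octanoate 2 (0.16), while it was 0.0320 without vehicle 1 and 0.0292 without octanoate 1. In the authors' deposited table its log2 fold change was 0.19 with an adjusted p of 0.00451. HSD17B4 shares 182 exon bases with FAM170A on the same strand, and FAM170A had at most 2 recovered reads in any library. The ratio of HSD17B4 to EHHADH per kilobase was 40.8 and 47.2 in vehicle and 52.9 and 49.1 in octanoate.

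The 250 bases before the RefSeq start of HSD17B4 are shown because it is the gene of the 8 that rose. The sequence is RefSeq's, build GRCh38.p14, chr5:119452247-119452496, plus strand, 5′ to 3′. It ends past the GENCODE start of the gene (119452443), so its last bases, with the GC box, lie inside the gene as placed above. The upstream window of SCP2 and the window of CAT also end past their GENCODE starts. Capitals mark GC boxes, whose letters are GGGCGG, and would mark CCAAT boxes. They would also mark the core motif of nuclear receptors, whose letters are AGGTCA. Each motif was searched on both strands.
HSD17B4: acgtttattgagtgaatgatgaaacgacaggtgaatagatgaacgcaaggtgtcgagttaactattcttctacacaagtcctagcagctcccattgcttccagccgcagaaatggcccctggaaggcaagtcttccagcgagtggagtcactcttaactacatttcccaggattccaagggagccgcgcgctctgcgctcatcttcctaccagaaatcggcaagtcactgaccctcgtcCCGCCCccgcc
The window is 52.8% G or C and holds 1 GC box near the start, read on the opposite strand, and no CCAAT box. Such a table entry existed for HSD17B4, SCP2, ABCD3, CAT and ACOX3, in 7 windows since SCP2 and ACOX3 have 2 starts each; ACOX2, EHHADH and ACAA1 had none. The core motif AGGTCA was in 0 of the 7 windows, and its direct repeat with any 1 base between the copies, the arrangement bound by PPAR with RXR, was in 0 too. Among 35116 windows of the same length, 12.1% held AGGTCA and 0.0171% held the repeat, so an absence from 7 windows says little. GC boxes were in 6 of the 7 windows against 42.6% of all windows, and CCAAT boxes in 1 against 32.0%; these matches are a description of the letters.

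Cleavage is the last step of a round. ACAA1, the peroxisomal 3-ketoacyl-CoA thiolase (ENSG00000060971.17, chr3:38103129-38137242, minus strand), had the largest difference of the 8 in size on the log2 scale. Its 4 values were 2382 and 2222 normalised counts in vehicle and 1946 and 1795 in octanoate. Both octanoate libraries lay below both vehicle libraries, and ACAA1 fell by 0.30 on the log2 scale (standard error 0.07, 95% interval -0.44 to -0.16, adjusted p 0.00162 by limma). It was called with each library left out in turn, with limma adjusted p from 0.000531 to 0.0430. In the authors' deposited table the log2 fold change was -0.30 with an adjusted p of 0.00320. In the authors' deposited table both ACAA1 and HSD17B4 (2 of the 8 genes) had an adjusted p under 0.05, and all 8 had the sign found here. Of all 33533 genes of that table, 12.9% had an adjusted p under 0.05. These include genes below the filter on low values used here, so that share is not a background for the 8 genes. In the main limma test, 38.3% of tested genes with a mean within the range of the 8 were called. Exons of ACAA1 share 1403 bases with DLEC1 on the opposite strand, and DLEC1 itself had 22.3 to 33.6 normalised counts, so the split of reads between the 2 genes is uncertain; its part in the fall of ACAA1 was not tested. A further 103 exon bases overlap a short RNA gene on the same strand named RF00019, a name that 758 annotated genes share. The 1 row of that name, with 1010 and 1628 normalised counts in vehicle and 888 and 981 in octanoate, was called lower as well (log2 difference -0.46, adjusted p 0.00794 by limma) but cannot be tied to this locus, and its part was not tested.

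SCP2 (ENSG00000116171.17, chr1:52927229-53051703, plus strand) gives rise to a longer product, the thiolase SCPx that cleaves branched chains and bile acid precursors, and from an internal start to the small lipid carrier named sterol carrier protein. A count per gene does not separate them. The gene had 6879 and 6695 normalised counts in vehicle and 7071 and 6790 in octanoate. These values overlapped, with a log2 difference of 0.03 (standard error 0.06, 95% interval -0.09 to 0.15, adjusted p 0.744 by limma). The ratio of SCP2 to ACAA1 per kilobase was 1.83 and 1.91 in vehicle and 2.31 and 2.40 in octanoate, higher in both octanoate libraries. In GENCODE 29 SCP2 shares 1275 exon bases with the pseudogene TUBBP10 on its own strand. It shares 445 with the pseudogene AL445183.3 on the opposite strand. Neither name was found among the deposited genes, and their part in the SCP2 count was not tested.

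The windows before both starts of SCP2 are shown because the single count sums what starts at each; they lie 87661 bases apart, at chr1:52927026-52927275 and chr1:53014687-53014936 (RefSeq, GRCh38.p14, plus strand, 5′ to 3′). Capitals mark the same motifs as above.
SCP2 upstream start: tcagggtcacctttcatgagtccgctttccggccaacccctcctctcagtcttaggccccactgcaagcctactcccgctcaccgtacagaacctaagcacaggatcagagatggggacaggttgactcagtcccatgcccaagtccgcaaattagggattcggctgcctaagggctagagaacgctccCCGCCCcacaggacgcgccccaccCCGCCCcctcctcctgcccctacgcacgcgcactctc
SCP2 internal start: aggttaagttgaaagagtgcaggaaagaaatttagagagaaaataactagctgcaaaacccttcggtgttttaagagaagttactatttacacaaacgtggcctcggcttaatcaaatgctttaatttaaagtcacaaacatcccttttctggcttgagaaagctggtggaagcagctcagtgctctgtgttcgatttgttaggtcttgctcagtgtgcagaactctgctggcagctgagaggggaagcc
The window before the upstream start is 62.4% G or C with 2 GC boxes, and that before the internal start is 42.8% G or C with none of the 4 motifs.

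CAT, the catalase that breaks down the peroxide made by the oxidases (ENSG00000121691.5, chr11:34438925-34472062, plus strand), had 8504 and 8238 normalised counts in vehicle and 8487 and 8416 in octanoate. Both octanoate libraries lay between the vehicle libraries. The log2 difference was 0.01 (standard error 0.06, adjusted p 0.884 by limma), and its 95% interval from -0.10 to 0.13 was the narrowest of the 8. Leaving out vehicle 2 turned the estimate to -0.00896.

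The window before the start of CAT is shown for contrast with that of HSD17B4, since it is the only one of the 7 with CCAAT boxes (RefSeq, GRCh38.p14, chr11:34438684-34438933, plus strand, 5′ to 3′; capitals as above).
CAT: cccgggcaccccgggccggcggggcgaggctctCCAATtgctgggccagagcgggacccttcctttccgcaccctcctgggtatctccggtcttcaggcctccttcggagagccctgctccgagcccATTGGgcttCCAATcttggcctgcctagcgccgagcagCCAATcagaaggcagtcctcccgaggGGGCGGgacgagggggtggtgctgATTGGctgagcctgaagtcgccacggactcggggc
It is 68.8% G or C and holds 5 CCAAT boxes, counted on both strands, and 1 GC box.

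**Figure D2:**
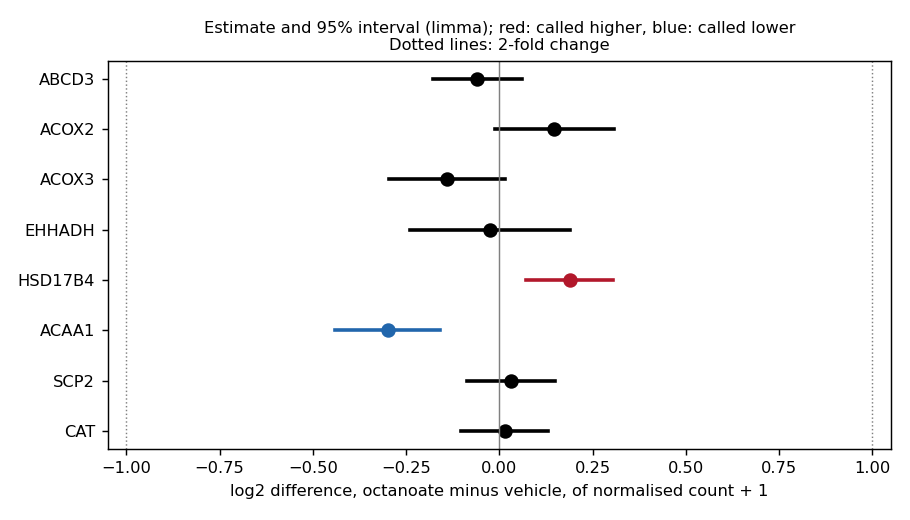
Log2 difference between octanoate and vehicle of normalised count + 1 (horizontal axis) for each of the 8 genes, with the 95% interval from limma; red is called higher, blue called lower and black not called. ACAA1 (-0.30) and HSD17B4 (0.19) are the intervals clear of 0, and no interval reaches the dotted lines at -1 and 1.

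Other peroxisomal genes were read from lists of general pathway knowledge. Of 63 genes in 5 lists, 58 had a mean of at least 10 and were tested; 7 were called higher, 3 lower and 48 were not called, which is 17.2% called against the background of 29.9%. Their median log2 difference was 0.03. The share followed the settings. With trends on GC content and length removed, 21 of the 58 (36.2%) were called, against 46.3% of the 15141 tested genes with a GENCODE length. Without a filter on low values 5 of 62 (8.06%) were called, against 5.97% of all genes in that fit. That last share includes genes below the mean of 10, so it is not a background for these 62. In limma without an intensity trend 0 were called, though 10 had an unadjusted p under 0.05, and edgeR called 13 and DESeq2 7. Each of these fits called its own share of all genes, so these counts are not to be read against 29.9%.

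Among other genes of import and oxidation, 3 of 18 tested were called higher and 1 lower, with a median log2 difference of 0.07. ECH1, a dienoyl-CoA isomerase of peroxisomes and mitochondria that handles double bonds, rose from 4404 and 3723 to 6184 and 5836 (log2 difference 0.57, adjusted p 6.50e-07 by limma). PHYH, the hydroxylase that opens the alpha-oxidation of phytanoyl-CoA, rose by 0.30 on the log2 scale (adjusted p 0.00287 by limma), a call lost without vehicle 2 (0.22, adjusted p 0.0762 by limma). ECI2, an enoyl-CoA isomerase named here as the remaining riser after its values were seen, had a log2 difference of 0.19 with a limma adjusted p of 0.0485 and was not called with any 1 library left out (adjusted p 0.105 by limma to 0.225).

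The gene of this list that was lower acts before the cycle. AMACR, the racemase that converts branched acyl-CoA to the form the oxidases accept, went from 469 and 420 normalised counts to 331 and 309 (log2 difference -0.47, standard error 0.10, adjusted p 0.00129 by limma). Both octanoate libraries lay below both vehicle libraries.

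Peroxisome biogenesis genes, which encode the import receptors, docking complex and division factors of the organelle, were mostly not called: 1 of 17 was called higher and 16 were not called by limma, and their median log2 difference was 0.01. Other settings called up to 4 of these genes (2 higher and 2 lower with trends on GC content and length removed) and as few as 0 (DESeq2, for one). The gene called was PEX11G, a peroxisome division factor counted from few reads, with 98.2 and 80.4 normalised counts in vehicle and 123 and 122 in octanoate (log2 difference 0.46, standard error 0.17, adjusted p 0.0440 by limma). That call was lost when vehicle 2, octanoate 1 or octanoate 2 was left out (adjusted p 0.271 by limma, 0.133 and 0.128), and with DESeq2 (0.204). In ether lipid synthesis, 2 of 5 were called higher: AGPS, the alkyl-DHAP synthase, with a log2 difference of 0.23 (adjusted p 0.00308 by limma), and the fatty acyl-CoA reductase gene FAR2 with 0.27 (0.00307). All 5 ether lipid genes had a positive difference, with a median of 0.12, while 10271 of the 20250 tested genes had one and 16.2% were called higher.

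Among peroxide and redox genes 1 of 13 tested was called higher and 2 lower. IDH1, the NADP-dependent isocitrate dehydrogenase of cytosol and peroxisome, went from 14591 and 13954 normalised counts to 11414 and 11593 (log2 difference -0.31, standard error 0.06, adjusted p 0.000142 by limma). SOD1, the copper-zinc superoxide dismutase, had a log2 difference of -0.18 (adjusted p 0.0206 by limma), a call lost without vehicle 1 (0.118) and without octanoate 2 (0.329). The membrane protein gene PXMP4 had one of 0.26 (adjusted p 0.0202 by limma), lost without vehicle 2 (0.164), without octanoate 1 (0.220) and with DESeq2 (0.0509). Of 5 genes of peroxisomal proteases and fission 0 were called by limma, 0 had an unadjusted p under 0.05 and DESeq2 and edgeR called 0 as well, but 1 was called higher by limma with the replicate block and with trends on GC content and length removed; LONP2, the peroxisomal Lon protease, had the largest log2 difference at 0.11.

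**Figure D3:**
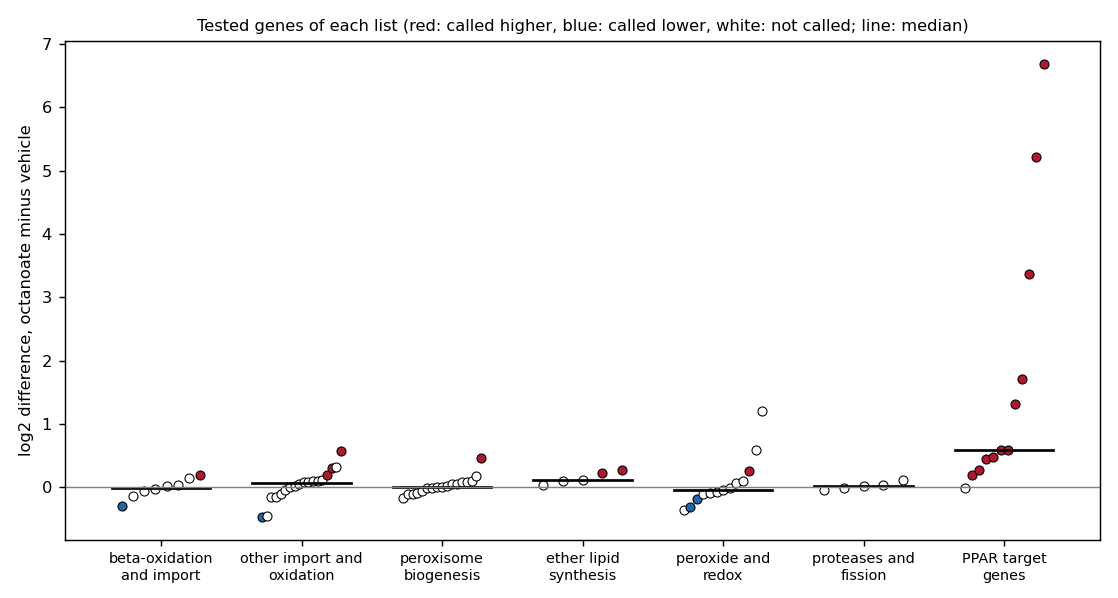
Log2 difference between octanoate and vehicle (vertical axis) of each tested gene in 7 lists (horizontal axis), with a line at the list's median; red is called higher, blue called lower and white not called. The 8 beta-oxidation and import genes lie between -0.30 and 0.19 around a median of -0.01, while the PPAR target list has a median of 0.58 and reaches 6.68. That list was chosen with earlier results of these data known and is not independent evidence of its direction. Its highest value is FABP4, which passed the filter only through octanoate.

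Genes known as PPAR targets were placed beside the pathway because several peroxisomal genes are such targets in rodent liver. Of 13 listed, 12 were tested, 11 were called higher and 1, the carnitine palmitoyltransferase gene CPT2, was not called. Over all tested genes 16.2% were called higher. The median log2 difference of the list was 0.58. The list was chosen with earlier results of these data known and is not independent evidence of its direction. ANGPTL4, a secreted lipase inhibitor, rose by 5.22, the fatty acid binding protein gene FABP4 by 6.68 and the liver-type transcription factor gene CREB3L3 by 3.36 on the log2 scale (adjusted p 3.07e-19 by limma, 4.21e-17 and 3.84e-17). FABP4 had 11 and 6 reads in vehicle and 1046 and 777 in octanoate, so it passed the filter only through octanoate, and its log2 difference was 6.15 with a pseudocount of 5. The count of called genes in this list includes FABP4, which had to differ. The mitochondrial thiolase gene ACAA2, named after its values were seen, had 2218 and 2124 normalised counts in vehicle and 3282 and 3214 in octanoate (log2 difference 0.58, standard error 0.06, adjusted p 1.14e-07 by limma). Within each library the ratio of ACAA2 to the peroxisomal thiolase ACAA1 in normalised counts was 0.931 and 0.956 in vehicle and 1.69 and 1.79 in octanoate. The ratio was higher in both octanoate libraries; it is a description of 2 chosen genes and carries no test.

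The subunits of the mitochondrial trifunctional protein, which in mitochondria hydrate, dehydrogenate and cleave long chains, were named in the same way. HADHA had a log2 difference of 0.28 (standard error 0.06, adjusted p 0.000603 by limma) and HADHB one of 0.19 (standard error 0.06, adjusted p 0.0103 by limma), with both octanoate libraries above both vehicle libraries for each. The HADHB call was lost without vehicle 2 (adjusted p 0.0681 by limma), without octanoate 1 (0.0524) and without octanoate 2 (0.0784). Beside them stand 0.19 for HSD17B4 and -0.03 for EHHADH, and the differences between these genes were not tested.

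Of the receptors, PPARG had 6793 and 6534 normalised counts in vehicle and 6025 and 5920 in octanoate (log2 difference -0.16, standard error 0.06, adjusted p 0.0397 by limma). Leaving out any 1 library ended that call (adjusted p 0.0641 by limma to 0.208). PPARA (log2 difference -0.08, adjusted p 0.437 by limma) and PPARD (-0.10, 0.373) did not pass the test. RXRA, the partner of PPAR on DNA, had a log2 difference of -0.21 (adjusted p 0.0128 by limma), lost without vehicle 2 (0.0994) and without octanoate 2 (0.159). The coactivator gene PPARGC1B rose from 869 and 900 normalised counts to 1207 and 1245 (log2 difference 0.47, standard error 0.08, adjusted p 3.36e-05 by limma). Without an intensity trend, HADHA (adjusted p 0.0942), HADHB (0.141), RXRA (0.154) and PPARG (0.199) were not called by limma.

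The genes whose pattern over the 4 libraries was most like that of ACAA1 were sought among the 58 tested genes of the other peroxisomal lists, by the Euclidean distance between log2 values centred on each gene's vehicle mean. The nearest were IDH1 at a distance of 0.103, SOD1 at 0.169 and PXMP2, a peroxisomal membrane protein gene, at 0.171, with log2 differences of -0.31, -0.18 and -0.36. IDH1 and SOD1 were called lower and PXMP2 did not pass the test (adjusted p 0.167 by limma). The distance uses the same 4 libraries as these differences, so a similar difference is set by the choice and is no result.

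**Figure D4:**
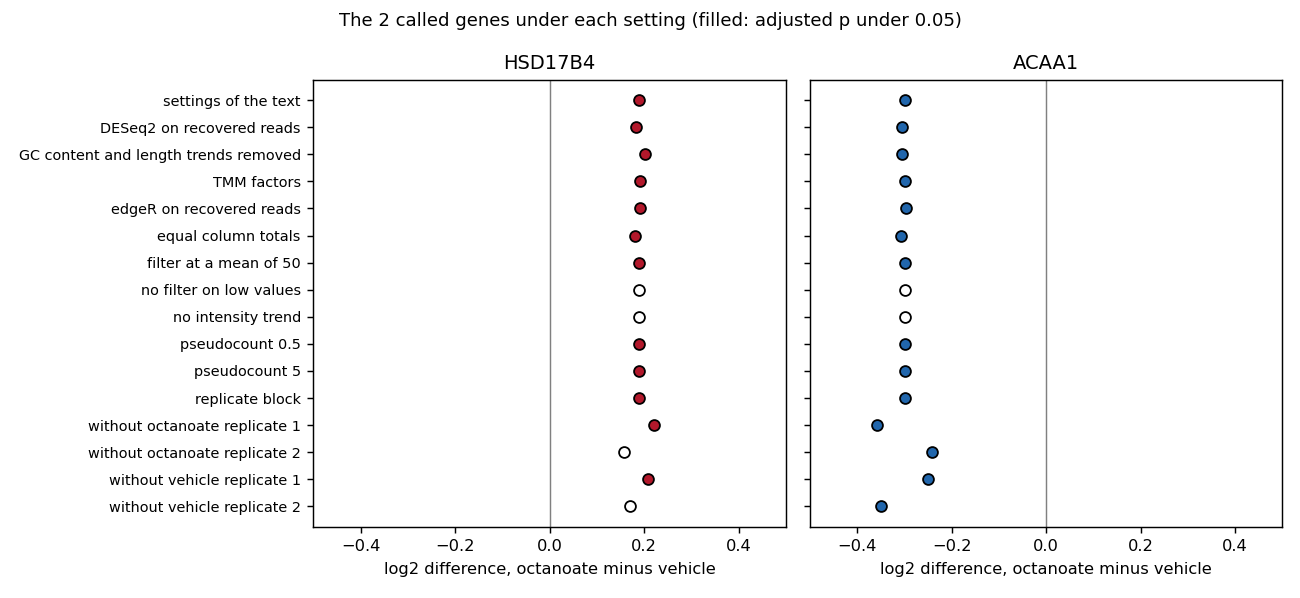
Log2 difference between octanoate and vehicle (horizontal axes) of HSD17B4 and ACAA1 under the settings of the text and 15 alternatives (rows); filled points had an adjusted p under 0.05. The estimates range from 0.16 to 0.22 for HSD17B4, called in 11 of the 15 alternatives, and from -0.36 to -0.24 for ACAA1, called in 13.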

How the data were processed

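The members and gene lists were chosen with earlier results of these data known. RNA was extracted with a Zymo kit and libraries were made with a NEBNext Ultra kit, per the labels' protocols. The submitters' processing notes list hg38, bcl2fastq 2.17, Trim Galore, STAR 2.4, Picard, HTSeq 0.9.1 and DESeq2, without roles; the annotation and the use of strand are not given in the sources used here. The deposited signal per gene and library is a count that the authors normalised with DESeq2, per the file name. Each value was a whole multiple of its library's smallest value (100% within 0.01), so whole reads were recovered. A second deposited table holds the authors' mean signal, log2 fold change with its standard error, test score, p-value and adjusted p-value.

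Because these are normalised values, the main test was limma 3.58.1 (R 4.3.3) on log2(normalised count + 1), with treatment as the only term and a variance prior that follows intensity, over 20250 genes with a mean of at least 10. P-values are two-sided and were adjusted by Benjamini-Hochberg over all of these; log2 differences understate changes of low counts. The fits were also run on simulated data whose changes were larger than that of any of the 8 genes, so that check does not cover changes of their size. The alternatives were a pseudocount of 0.5 or 5, a minimum mean of 50 or none, TMM factors, equal column totals, no intensity trend, a replicate block, each library left out, edgeR 4.0.16 (6480 genes called) and DESeq2 1.42.0 on recovered reads, and trends on GC content and length removed. Named by rule were the 8 members and up to 4 called genes with the smallest p of each peroxisomal list. So were up to 3 of each PPAR list, PPARA, PPARD, PPARG and the 3 nearest to the member that differed most. Other list genes, CPT2, LONP2 and HAO1 among them, were named after their values were seen, and not all are marked so. Some genes of these lists are not reported here and are left out of the list counts. Places, exon overlaps and lengths came from GENCODE 29 (GRCh38), and promoter windows from RefSeq (GRCh38.p14).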

Additional observations from a re-analysis of the deposited data

How the results depend on the processing

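Across 15 alternatives, the direction of ACAA1, HSD17B4, ACOX2, ACOX3, SCP2 and ABCD3 did not turn. Without an intensity trend 1625 genes were called in the whole table and without a filter on low values 2595, and 0 of the 8 members were called in either by limma; 2 members had an unadjusted p under 0.05 in both, and edgeR and DESeq2 called 2. Neither setting can alter a log2 difference; the adjusted p was 0.162 and 0.0896 for HSD17B4 (0.19) and 0.117 and 0.0689 for ACAA1 (-0.30). With 1 library left out, 1 to 2 members were called, and the log2 difference was 0.16 to 0.22 for HSD17B4, -0.15 to 0.10 for EHHADH and -0.00896 to 0.0369 for CAT. With 1 library left in a group, that library is assumed to vary like the others. ACOX2 was called with GC content and length trends removed (0.15); 74.8% of tested genes had a GC content there, so that check is void for the whole table, though it covers all 8 members. The replicate numbers come from the titles, which do not say what they mark, and deviations of same-numbered libraries correlated at 0.27 over 13482 genes. With the number as a replicate block, 4 members were called, ACOX2 (0.15) and ACOX3 (-0.14) besides the 2, and 8376 genes in all, which included all 6048. Of the 58 other peroxisomal genes 20 were called with that block, against 10 without it. EHHADH, with 453 to 531 reads, had the fewest reads and the widest interval of the 8; the cause was not tested.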

Other observations

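Genes of the peroxisomal lists below the mean of 10 were not tested, and their recovered reads are given in the order vehicle 1, vehicle 2, octanoate 1, octanoate 2. SLC27A2, a very-long-chain acyl-CoA synthetase and transporter of liver, had 4, 5, 12 and 12 reads. ACOXL, an oxidase-like gene, had 8, 9, 3 and 0 reads. The D-amino acid oxidase gene DAO had 6, 6, 1 and 5. The thioesterase gene ACOT4 had 0, 2, 0 and 0 reads. The hydroxyacid oxidase gene HAO2 had 0 reads in every library. HAO1, its liver relative, passed the filter with 4, 10, 13 and 18 reads and was not called (log2 difference 1.20, limma adjusted p 0.0934). Its mean was 6.81 normalised counts in vehicle and 16.0 in octanoate, so it passed the filter only through octanoate.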
